A study of Arabidopsis thaliana with 6 samples.

Results

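The loci AT1G63010, AT2G38920, AT3G44510, AT1G67600 and AT5G20790, 5 genes tied to the phosphate starvation response of Arabidopsis, were examined in shoots of Brassica oleracea. The members were the probe sets whose only gene in the platform's gene table is one of these loci, which gave 6 probe sets for 5 genes, of 13286 genes that have such a probe set on the array. A value on every array was available for 5 of the 6 probe sets, 1 per locus, and the second probe set of AT3G44510 is listed on the replicate 1 arrays alone. Of the 5 loci, 4 were those with the smallest p in a longer list in earlier work on the same arrays, so their differences describe these arrays and give no independent support for a direction.

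The groups were 3 P-starved arrays, from shoots of phosphate-starved plants, and 3 replete arrays, from shoots of plants with full nutrients. All plants were Brassica oleracea var. alboglabra of 1 doubled haploid line, A12dH, grown on compost at a daylength of 16 h and 22 °C. Neither the length of the starvation nor the way phosphate was withheld is given in the sources used here, and the labels do not say whether the arrays of a group came from separate plants, so that a p-value here reflects the spread among these arrays, part of which may be technical. RNA was hybridised to ATH1 arrays, which carry probes for Arabidopsis thaliana, and GEO's organism field names Arabidopsis. Each locus name therefore stands for the gene the probes were made for, and the gene copies of Brassica are not told apart.

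Plants sense phosphate through proteins with an SPX domain, which binds inositol pyrophosphates when phosphate is ample and then holds back PHR1, the transcription factor that turns on starvation genes. Surplus phosphate is stored in the vacuole, and phosphate transporters at the plasma membrane are removed by ubiquitin ligases while supply lasts. In starved leaves, phosphatases and lipid-remodelling enzymes release phosphate from organic compounds. AT1G63010 encodes an SPX-domain transporter that moves phosphate into the vacuole, and AT2G38920 a protein with an SPX and a RING domain, related to the ubiquitin ligase NLA. AT3G44510 belongs to the alpha/beta hydrolase family, AT1G67600 to a family related to acid phosphatases and vanadium-dependent haloperoxidases, and the product of AT5G20790 has no characterised function. All these roles are known from Arabidopsis.

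The arrays fell into 2 sets by the probe sets they list, called processing sets here. The labels do not say how these sets arose. Both replicate 1 arrays list 22810 probe sets and the replicate 2 and 3 arrays 19642, and log2 signals correlated across probe sets with r of 0.903 to 0.927 within a set and 0.608 to 0.633 between sets. As each set holds both groups, P-starved and replete arrays were compared inside each set and also over all arrays, with the set as a blocking term in the model. The summed signal of the 5 leaf markers measured, of 15 listed, was 7495 to 17230 on P-starved and 6860 to 19924 on replete arrays. That of 6 root markers, of 10 listed, was 565 to 657 on P-starved and 377 to 457 on replete arrays, and these ranges did not overlap. Most of it came from AT5G06630, an extensin gene. Without that gene the root sum was 111 to 281 on P-starved and 127 to 195 on replete arrays, and the ranges overlapped. PRX57 (AT5G17820), a root peroxidase gene, stayed under a signal of 16 on all 6 arrays, the only root marker measured to do so. PYK10 (AT3G09260) was over 16 on all 6 arrays. It had 83.2, 74.0 and 134 on P-starved replicates 1, 2 and 3, against 63.7, 63.9 and 105 on the replete ones. In the fit over all arrays, 3 of the 6 root markers were higher and 3 lower in P-starved shoots.

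Signals of the locus of unknown function, AT5G20790, were higher in P-starved than in replete shoots within both processing sets. MAS5 signal, a linear probe set intensity, was 22.2, 47.8 and 45.8 on P-starved replicates 1, 2 and 3, against 6.70, 23.9 and 24.9 on replete replicates 1, 2 and 3. Every P-starved array lay above the replete arrays of its own set, while P-starved replicate 1 lay under replete replicates 2 and 3, so the groups overlapped over all arrays. The signal on the P-starved arrays was 3.31 times that on the replete array for replicate 1, where the replete value was dim, and 1.92 times for the means of replicates 2 and 3. Fewer cells of a type and less RNA per cell cannot be told apart in such whole-shoot samples.

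On the log2(signal + 16) scale, which understates the change of dim probe sets, the difference for AT5G20790 was 0.67 ± 0.21 (SE, n = 3 arrays per group, 95% interval 0.15 to 1.19). Replicate 1, with 1 array against 1, gave 0.75, and replicates 2 and 3 gave 0.64 ± 0.36 (SE, unadjusted p from limma 0.148). The interval is not adjusted for the choice of the locus, and limma's adjusted p over all probe sets was 0.788. With this blocking term limma called 0 of 19578 probe sets higher and 0 lower, a background of 0%, while at an unadjusted p under 0.05 there were 2.71% with a higher value, this locus among them, and 3.20% with a lower one. Without the block the difference was the same and its SE 0.49. The root marker sum was higher on the P-starved arrays too, mostly through AT5G06630, and its part in the result was not tested. Of the 6 root markers measured, 3 were higher and 3 lower in P-starved shoots.

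**Figure D1:**
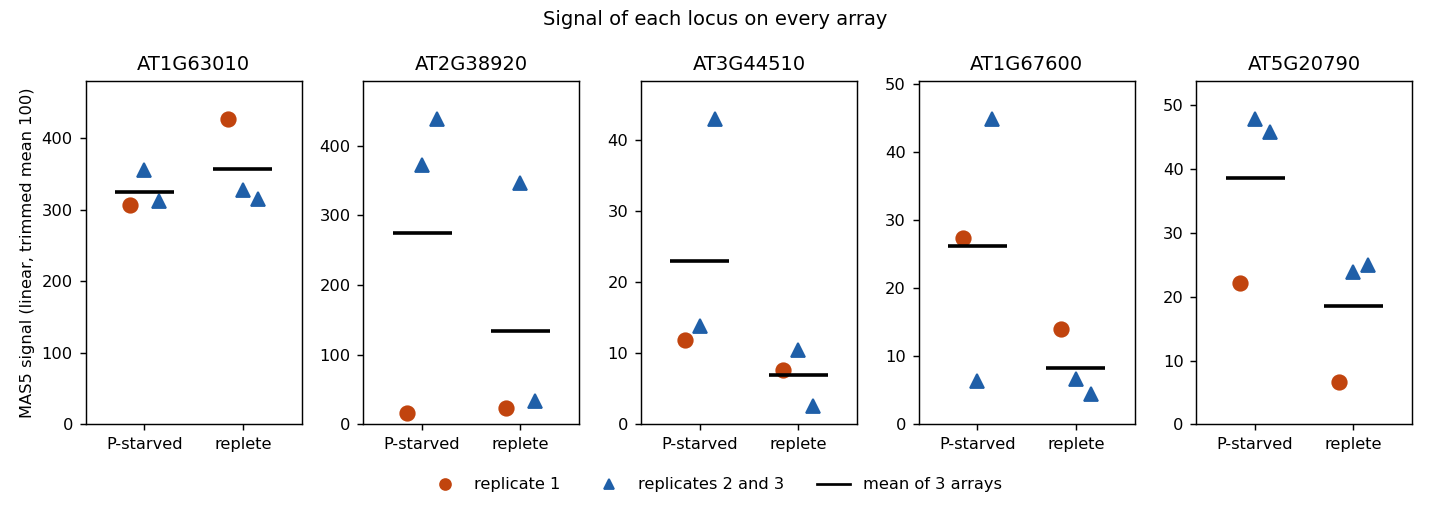
MAS5 signal (linear scale, y axis from 0, a scale of its own in each panel) of the 5 loci on each array, P-starved left and replete right, with circles for replicate 1, triangles for replicates 2 and 3 and a bar at the mean of 3 arrays. AT5G20790 is higher on the P-starved arrays within each kind of symbol, and AT2G38920 lies at 347 and 33.0 on replete replicates 2 and 3.

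AT5G20790 also differed little between replicates of 1 group within the second set. The absolute gap in log2(signal + 16) between replicates 2 and 3 was 0.046 in P-starved and 0.036 in replete shoots. Over all probe sets tested the median gap was 0.27 in each group. A gap at least as large as that of AT5G20790 occurred in 84.4% of them in P-starved and 87.8% in replete shoots. On the mean of replicates 2 and 3 its log2(signal + 16) was 0.72 above replicate 1 in P-starved and 0.83 above it in replete shoots. The distance between the sets was thus similar in both groups on this scale, but less so in plain signal. The mean signal of replicates 2 and 3 was 46.8 against 22.2 on replicate 1 in P-starved shoots, and 24.4 against 6.70 in replete shoots.

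AT1G63010, the vacuolar transporter gene, was bright on every array and showed no difference between the groups beyond its spread. It was measured at 307, 356 and 313 on P-starved replicates 1, 2 and 3, against 427, 328 and 315 on the replete ones, that is 325 ± 26.9 and 356 ± 61.1 (SD, n = 3 each). The groups overlapped, and the highest array was replete replicate 1. The log2 difference over all arrays was -0.12 ± 0.17 (SE, 95% interval -0.53 to 0.30), with an adjusted p from limma of 0.870.

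For this gene the 2 processing sets gave differences of opposite sign. Replicate 1, with 1 array against 1, gave a log2 difference of -0.45, and replicates 2 and 3 gave 0.05 ± 0.15 (SE). The test of the difference between the sets gave -0.51 ± 0.26 (SE), with an adjusted p from limma of 0.661, and the replicate 1 value has no replicate check. All 6 signals lay well above 16, so the offset in the log had little effect on this locus.

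AT2G38920, the SPX and RING gene, varied more between arrays than between groups. Its signal was 16.6, 371 and 438 on P-starved replicates 1, 2 and 3, against 23.5, 347 and 33.0 on the replete ones. Both replicate 1 arrays were low, and of the other 4 arrays replete replicate 3 alone was low.

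The 2 replete arrays of the second set thus differed 10.5-fold, while the 2 P-starved arrays differed 1.18-fold. A gap between replete replicates 2 and 3 as large as the 2.89 on the log2(signal + 16) scale of AT2G38920 occurred in 0.169% of the probe sets tested. In P-starved shoots its gap of 0.23 lay near the median of 0.27. The distance between the sets was also wide: the mean of replicates 2 and 3 lay 3.68 above replicate 1 in P-starved and 1.76 above it in replete shoots, and 4.28% of the probe sets had as large a distance between the sets in either direction over both groups.

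The log2 difference of AT2G38920 was 1.01 ± 0.82 (SE, 95% interval -1.05 to 3.06), with an adjusted p from limma of 0.796. Replicate 1 gave -0.28, and replicates 2 and 3 gave 1.65 ± 1.01 (SE), and the sets differed by -1.93 ± 1.87 (SE, adjusted p from limma 0.852). One array decided the value: without replete replicate 3 the difference was 0.00038, and without replete replicate 2 it was 1.65.

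**Figure D2:**
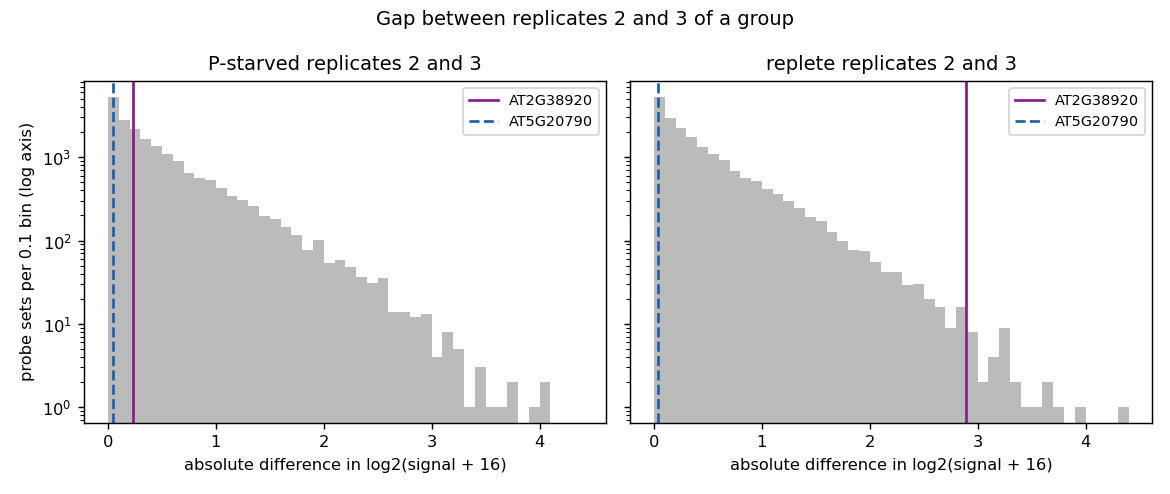
Histograms of the absolute difference in log2(signal + 16) between replicates 2 and 3 of a group over all probe sets tested, P-starved left and replete right, with a logarithmic y axis of probe sets per bin of 0.1. The solid line, AT2G38920, lies at 0.23 in P-starved and at 2.89 in replete shoots, and the dashed line, AT5G20790, lies near 0 in both.

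AT3G44510, of the alpha/beta hydrolase family, was dim. The probe set listed on all arrays had a signal of 11.9, 13.9 and 42.9 on P-starved replicates 1, 2 and 3, against 7.60, 10.5 and 2.60 on the replete ones. The P-starved arrays all lay above the replete ones, yet only P-starved replicate 3 reached a signal over 16. The log2 difference was 0.69 ± 0.33 (SE, 95% interval -0.12 to 1.50), with an adjusted p from limma of 0.788.

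For AT3G44510 replicate 1 gave a difference of 0.24, and replicates 2 and 3 gave 0.92 ± 0.43 (SE). Without P-starved replicate 3 the difference over the arrays was 0.35. The second probe set of this locus had a signal of 15.7 on P-starved replicate 1 against 36.4 on replete replicate 1, a log2 difference of -0.73. On these 2 arrays the probe sets of the locus thus disagreed in direction, and the second one has no value on the other 4.

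AT1G67600, of the family related to acid phosphatases, was dim on most arrays as well. Its signal was 27.4, 6.40 and 44.8 on P-starved replicates 1, 2 and 3, against 14.0, 6.60 and 4.40 on the replete ones. P-starved replicates 1 and 3 lay above all replete arrays, and P-starved replicate 2 lay among them. The 7-fold gap between P-starved replicates 2 and 3, of 1.44 on the log2(signal + 16) scale, was matched or passed by 5.51% of the probe sets.

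The log2 difference of AT1G67600 was 0.70 ± 0.38 (SE, 95% interval -0.25 to 1.65), with an adjusted p from limma of 0.788. Replicate 1 gave 0.53, and replicates 2 and 3 gave 0.78 ± 0.53 (SE). Without P-starved replicate 3 the difference was 0.26, and without P-starved replicate 2 it was 1.09.

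**Figure D3:**
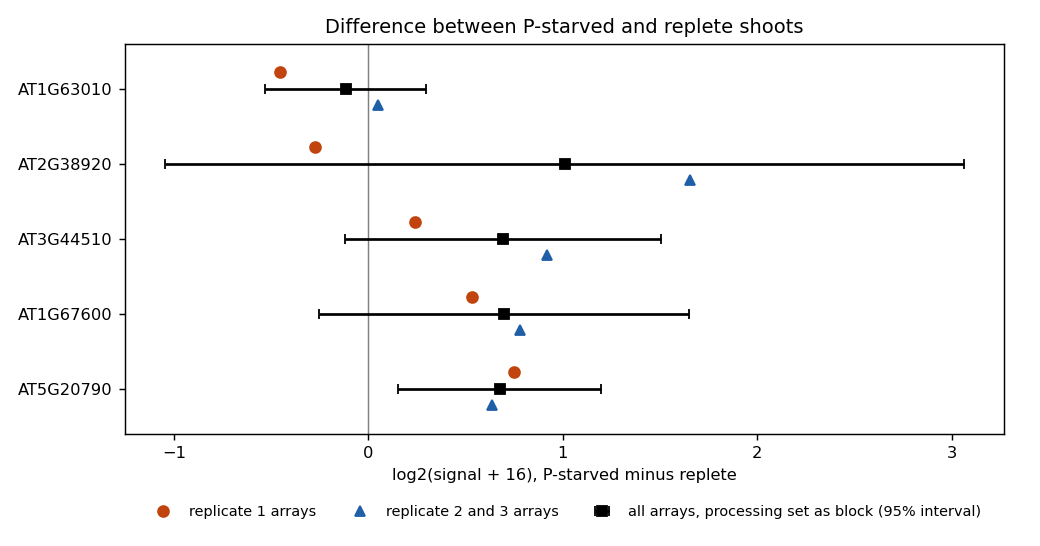
Log2(signal + 16) difference, P-starved minus replete (x axis), for the 5 loci: circles for the replicate 1 arrays, triangles for the replicate 2 and 3 arrays, and squares with 95% intervals for all arrays in the blocked fit. The interval of AT5G20790 lies between 0.15 and 1.19, and those of the other loci include 0.

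Set side by side, 4 of the 5 loci had a higher value in P-starved shoots, where 52.6% of all probe sets tested did. On the replicate 1 arrays and on the mean of replicates 2 and 3 alike, 3 loci were higher (AT3G44510, AT1G67600 and AT5G20790), against 29.0% of all probe sets. These counts take 1 probe set per locus, the one listed on all arrays, and the second probe set of AT3G44510 was lower on P-starved replicate 1. In AT3G44510 and AT5G20790 the groups did not overlap within either set and the P-starved arrays were the higher ones, which held for 12.5% of all probe sets. Over all 6 arrays the groups did not overlap for AT3G44510, against 2.33% of all probe sets with P-starved arrays higher. The loci were picked with such values in view, so these counts were not tested.

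The sizes of the 3 differences were alike on the log2(signal + 16) scale, between 0.67 and 0.70, but not in plain signal. For AT3G44510, AT1G67600 and AT5G20790 the P-starved signal was 1.57, 1.96 and 3.31 times the replete one on replicate 1. For the means of replicates 2 and 3 it was 4.34, 4.65 and 1.92 times. The ratios of 4.34 and 4.65 came mostly from P-starved replicate 3, at 42.9 and 44.8, over replete means of 6.55 and 5.50. On replicate 2 the P-starved signal was 13.9 against 10.5 for AT3G44510, and 6.40 against 6.60 for AT1G67600. Of all probe sets tested, 4.62% had a higher difference than AT5G20790, 4.25% a higher one than AT3G44510 and 4.18% a higher one than AT1G67600. For AT2G38920 this share was 1.12%, and for AT1G63010 it was 66.6%. SEs differed more than the differences did, from 0.21 for AT5G20790 to 0.82 for AT2G38920 among the 4 loci with higher values. None of the 5 loci had an adjusted p under 0.05 from limma's test of the difference between the sets, which called 0 of 19578 probe sets, or 0%, with 9.94% at an unadjusted p under 0.05.

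**Figure D4:**
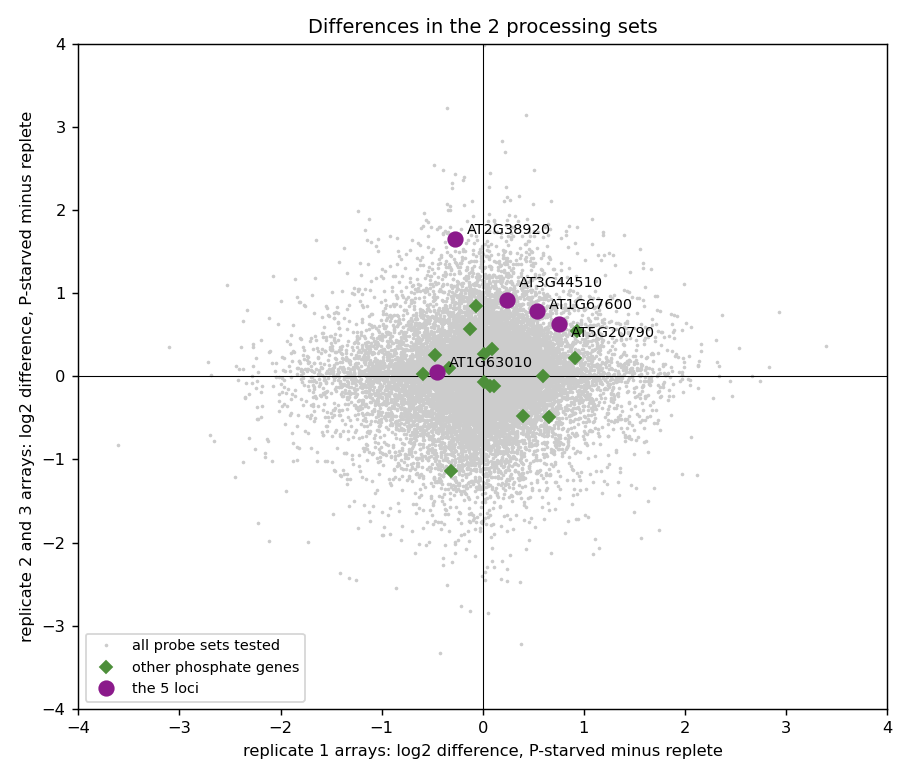
Log2(signal + 16) difference, P-starved minus replete, on the replicate 1 arrays (x axis) and on the replicate 2 and 3 arrays (y axis), for all probe sets tested (grey), 16 other phosphate genes (diamonds) and the 5 loci (circles). AT3G44510, AT1G67600 and AT5G20790 lie above 0 on both axes, while AT2G38920 lies at -0.28 and 1.65.

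Other genes of phosphate nutrition were mostly not measured under a name. Of a list of 107 further loci, 16 had a probe set of their own with a value on all arrays. Of the 16, P-starved shoots had higher values of 8 and lower values of 8. Their median log2 difference was -0.01, against 0.02 over all probe sets tested. None of the 16 passed limma's adjusted threshold, and 5 were higher and 1 lower in both processing sets. Of all 19578 probe sets tested, 5681 (29.0%) were higher in both sets and 4525 were lower in both. None of the 29 transport genes on the list had a probe set that names it alone. Whether any is read by the 8794 probe sets without a gene name, or the 503 that name several, cannot be told here.

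Among sensing and signalling genes 2 of 5 were higher. LPR1 (AT1G23010), a ferroxidase gene of the root's response to low phosphate, had signals of 63.7, 56.5 and 74.9 on P-starved replicates 1, 2 and 3, against 25.9, 25.7 and 58.5 on the replete ones. Only P-starved replicate 2 lay under a replete array, and the log2 difference was 0.67 ± 0.33 (SE). Its relative LPR2 (AT1G71040) had 57.4, 145 and 180 on P-starved arrays, against 61.1, 74.2 and 91.6 on replete ones. That difference of 0.54 ± 0.28 (SE) came from the replicate 2 and 3 arrays, with 0.85, whereas replicate 1 gave -0.07. For SIZ1 (AT5G60410), a SUMO ligase gene, the probe set listed on all arrays was under 16 on 5 of 6 arrays and had -0.17 ± 0.15 (SE). A second SIZ1 probe set, listed on the replicate 1 arrays alone, had a signal of 173 in P-starved replicate 1 against 252 in replete replicate 1. Adjusted p from limma was 0.788 for LPR1 and LPR2 and 0.801 for SIZ1.

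The 1 lipid remodelling gene measured under its name on all arrays, AT1G73600, encodes a methyltransferase of phosphocholine synthesis. Its signal was 114, 2.00 and 17.2 on P-starved replicates 1, 2 and 3, against 146, 56.9 and 23.6 on the replete ones. It was lower on the P-starved arrays in both sets, with a log2 difference of -0.86 ± 0.42 (SE, adjusted p from limma 0.788). The 1 phosphatase gene measured under its name on all arrays, AT5G44020, had -0.11 ± 0.30 (SE). Replicate 1 gave 0.66 and replicates 2 and 3 gave -0.49. The purple acid phosphatase gene AT1G13750, listed on the replicate 1 arrays alone, had a signal of 80.9 in P-starved replicate 1 against 96.6 in replete replicate 1.

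Among genes of phosphate- and adenylate-saving metabolism 3 of 4 were higher. The subunit genes of pyrophosphate-dependent phosphofructokinase, which uses pyrophosphate in place of ATP, had log2 differences of 0.45 ± 0.42 (AT1G76550), 0.34 ± 0.36 (AT1G20950) and -0.19 ± 0.32 (AT1G12000, SE each). For AT1G20950 and AT1G12000 the 2 sets gave opposite signs. Of 5 further loci reported as induced by phosphate starvation in Arabidopsis 3 were higher, AT1G08310 by 0.25 ± 0.21, AT3G43110 by 0.20 ± 0.16 and SAL2 (AT5G64000) by 0.19 ± 0.21 (SE each). AT3G43110 was under a signal of 16 on all replicate 2 and 3 arrays. Adjusted p from limma for these 6 genes ran from 0.795 to 0.892.

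Genes with the most similar pattern were sought for each locus among the 6043 named probe sets with a mean signal of 50 or more, after each probe set was centred within each processing set. Likeness was Pearson's r over 6 arrays, and among so many candidates a high r is always found. Centring leaves equal and opposite values on both replicate 1 arrays, so r rests on fewer free values than arrays. For AT5G20790 the nearest were IKU1 (AT2G35230, r = 0.998), AT4G17940 (0.997) and AT5G03120 (0.997), with log2 differences of 0.97, 0.44 and 0.63. For AT2G38920 they were AT4G12490 (0.997), the plastid photosystem gene psaJ (0.995) and AT1G12810 (0.995), with differences of 0.67, 0.10 and 0.23.

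For AT1G63010 the nearest were AT1G51720 (0.996), the plastid cytochrome gene petB (0.996) and GH3.1 (AT2G14960, 0.994). Those of AT3G44510 were AT5G40510 (0.999), AT3G07010 (0.996) and AT1G02960 (0.991), and those of AT1G67600 were AT3G53940 (0.996), AT5G08139 (0.996) and AT1G68730 (0.995). None of the 15 genes was among the other phosphate genes measured. Only those of the 16 with a mean signal of 50 or more were among the 6043 candidates. Such a hit was therefore unlikely, and its absence says nothing about likeness.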

How the data were processed

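The authors deposited MAS5 signal, an intensity per probe set on a linear scale. The submitters' processing notes name MAS5, with no version, and say nothing of masked probes. Each array was scaled to a 2% trimmed mean of 100, a factor of 0.9996 to 0.99995, and log2(signal + 16) was taken. No detection calls were used. After removal of 64 control probe sets, 19578 had a value on all 6 arrays. Of these, 21.8% to 33.9% lay under a signal of 16 on an array, and precision is limited by the number of arrays.

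Group and processing set were fitted to all 19578 probe sets with limma 3.58.1 (R 4.3.3; lmFit, and eBayes with a trend), two-sided, with p adjusted by Benjamini-Hochberg and a threshold of 0.05. The difference between sets was the interaction term. Differences are P-starved minus replete. The fit was tested on simulated data, but the outcome is not given here, so that test lends the results no support. Alternatives were the group-only fit, the replicate number as a block, the replicate 2 and 3 arrays alone, offsets of 4 and 64, the brighter 50% of probe sets, 2 other scalings, quantile normalization, no trend, and leaving out each array. The replicate 1 arrays alone were added after seeing the data.

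Samples with the same replicate number deviated together (r of 0.839, 0.551 and 0.530 for numbers 1, 2 and 3), but within the second set the replicate 2 minus 3 differences of the 2 groups correlated with r = 0.016.

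Gene names came from the platform's gene table joined to a table of Arabidopsis genes (TAIR10.1), with 13436 of 22810 matched. The platform's table names 1 gene for 13513, several for 503, and none is given here for 8794. All 5 loci were named, with, for each role on the phosphate list, the 3 genes of smallest p, and the 3 genes most like each locus. Where a gene of these lists had several probe sets, the brightest of those listed on every array was used. Members and lists were chosen with earlier results of these data known.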

Additional observations from a re-analysis of the deposited data

How the results depend on the processing

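No alternative gave an adjusted p under 0.05 for any of the 5 loci or for any probe set: limma's count stayed at 0 in all 16 alternatives, with a smallest adjusted p of 0.447 to 1.00. With the replicate number as a block (the replicate block) the count was also 0, and the log2 difference of AT5G20790 was 0.67 ± 0.24 (SE, adjusted p from limma 0.801); pairing changed no call. AT1G63010, at -0.12 over all arrays, was at 0.052 on the replicate 2 and 3 arrays alone, and leaving out 1 array gave -0.22 to 0.052, the upper value without either replicate 1 array. On the replicate 1 arrays alone it was -0.45, AT2G38920 reversed to -0.28 and AT5G20790 was 0.75. Leaving out 1 array gave 0.00038 to 1.65 for AT2G38920, 0.35 to 0.92 for AT3G44510, 0.26 to 1.09 for AT1G67600 and 0.64 to 0.70 for AT5G20790. The median of the 16 phosphate genes was -0.044 to 0.11 over all alternatives and 0.021 to 0.11 without 1 array, the highest without P-starved replicate 3. The difference of AT5G20790 between the sets was 0.11, with 0.45 at an offset of 4 and -0.040 at an offset of 64. With an offset of 4 the log2 differences of AT3G44510, AT1G67600 and AT5G20790 were 1.20, 1.10 and 0.99, and with an offset of 64 they were 0.28, 0.30 and 0.31, as their signals are close to the offset. These 3 loci fell outside the brighter 50% of the probe sets, so that alternative gave them no value.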
